A study of Homo sapiens with 6 samples.

Results

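NOTCH1, NOTCH2, JAG1 and ADAM10 are 4 loci of the Notch signalling pathway, and the report gives their crosslinking to the RNA-binding protein QKI-5 in BEAS2B cells. The members were taken as every crosslink line on the minus strand inside 4 hg19 gene intervals, in all 6 deposited libraries. The interval of NOTCH1 was chr9:139388896-139440238 (51343 nt), that of NOTCH2 chr1:120454176-120612317 (158142 nt), that of JAG1 chr20:10618332-10654694 (36363 nt) and that of ADAM10 chr15:58887403-59042177 (154775 nt). They touch 46 of the 174732 strand-specific 10 kb windows that held any event in the series.

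BEAS2B is an established human cell line from bronchial epithelium, grown in serum-containing medium and irradiated with UV. The 3 QKI-5 libraries were immunoprecipitated with a self-made antibody against QKI-5, and for the 3 control libraries the labels give no antibody. No other treatment, genotype or time separates the groups. The labels do not say that the replicates were separate cultures, and if they were not, the p-values here reflect technical spread between the libraries alone. The expression of bronchial epithelial markers was not checked, since no hg19 gene annotation was used here.

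Notch receptors are membrane proteins that bind ligands on a neighbouring cell. Binding lets the protease ADAM10 cut the receptor outside the membrane, gamma-secretase then cuts within it, and the released intracellular domain enters the nucleus and acts with RBPJ on transcription. In the airway epithelium this pathway is known for steering basal cells between secretory and ciliated fates. QKI-5 is the nuclear form of Quaking, a STAR-family protein that binds ACUAA-type elements and regulates splicing, and its action on the splicing of NUMB, a Notch inhibitor, is known from lung cancer cells. In iCLIP the reverse transcriptase stops at the crosslinked base, so each cDNA marks a position and a strand.

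The QKI-5 libraries held 7283982, 2143279 and 2889146 crosslink events in replicates 1, 2 and 3, against 137926, 41475 and 29810 events in controls 1, 2 and 3. The 4 loci together took 0.0708, 0.0649 and 0.0706% of the events of the QKI-5 libraries, against 0.0660, 0.0603 and 0.0604% in the controls. In events this was 5159, 1390 and 2041 in QKI-5 libraries and 91, 25 and 18 in controls. The control depth therefore sets the precision of every comparison below. Intervals and floors (3 events) cover counting error only. The abundance of the transcripts was not measured, so more RNA and more binding per RNA cannot be told apart.

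Crosslinking was dense over NOTCH2 and ADAM10, lower over NOTCH1 and sparse over JAG1, and no locus passed the test of QKI-5 over control. Density is given as EPM per kb, the crosslink events per 1000000 library events divided by the length of the locus. Among the receptors, NOTCH2 averaged 2.09 ± 0.113 EPM per kb in QKI-5 libraries and 1.77 ± 0.0678 in controls (SD, n = 3 each), a ratio of 1.18. NOTCH1 averaged 0.633 ± 0.186 EPM per kb in QKI-5 libraries and 0.799 ± 0.723 in controls, a ratio of 0.792. The protease ADAM10 stood at 2.05 ± 0.176 in QKI-5 libraries and 1.86 ± 0.265 in controls, a ratio of 1.11. The ligand JAG1 had 0.206 ± 0.0452 in QKI-5 libraries and 0.374 ± 0.485 in controls, a ratio of 0.552.

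NOTCH2, a receptor of broad expression, had 2441, 665 and 997 events in QKI-5 replicates 1, 2 and 3, and 39, 12 and 8 events in the controls. In EPM, the QKI-5 libraries stood at 335, 310 and 345 and the controls at 283, 289 and 268. Every QKI-5 library lay above every control here. Of all 29960 tested 10 kb windows, 23.7% showed the same complete separation, so this order is not particular to NOTCH2. The exact two-sided permutation test gave p = 0.1, the smallest that 3 libraries against 3 allow, and 0.4 after Benjamini-Hochberg adjustment over the 4 loci. Pooled over libraries the ratio was 1.18, with an exact 95% interval from 0.914 to 1.55.

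ADAM10, the membrane protease that sheds the ectodomain of Notch, had 2488, 617 and 934 events in QKI-5 libraries and 44, 10 and 9 events in controls. The levels were 342, 288 and 323 EPM in QKI-5 libraries and 319, 241 and 302 EPM in controls. The groups overlapped, since QKI-5 replicate 2 lay below controls 1 and 3 (exact permutation p = 0.4, adjusted 0.8). The pooled ratio was 1.09, with an interval from 0.849 to 1.42.

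NOTCH1, a receptor that acts in many developing epithelia, had 185, 93 and 83 events in QKI-5 libraries and 7, 3 and 0 events in controls. QKI-5 libraries had a level of 25.4, 43.4 and 28.7 EPM, and the level in controls was 50.8, 72.3 and 0 EPM. Controls 1 and 2 lay above all QKI-5 libraries and control 3 below them (exact permutation p = 0.7, adjusted 0.8). The 0 events of control 3 allow a density of up to 1.96 EPM per kb, above that of all 3 QKI-5 libraries. The pooled ratio of 0.613 had an interval from 0.330 to 1.29, so a difference in either direction was not detectable at this depth.

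JAG1, a ligand of the Jagged group, had 45, 15 and 27 events in QKI-5 libraries and 1, 0 and 1 event in controls. The QKI-5 level was 6.18, 6.999 and 9.35 EPM, and the controls stood at 7.25, 0 and 33.5 EPM. With 2 control events in all, the pooled ratio of 0.739 had an interval from 0.199 to 6.20, and the groups overlapped (exact permutation p = 0.8, adjusted 0.8).

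**Figure D1:**
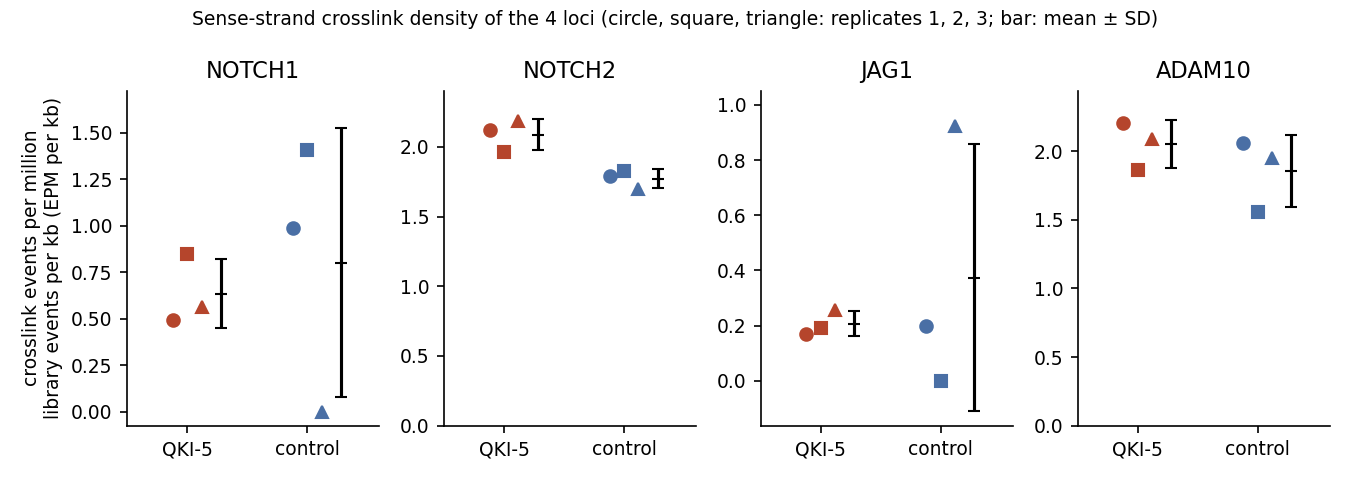
Crosslink density of each locus in EPM per kb (vertical axis, one scale per locus) for QKI-5 libraries (red) and controls (blue), with circles, squares and triangles for replicates 1, 2 and 3 and bars for mean ± SD. Only at NOTCH2 do the 3 QKI-5 points (1.96 to 2.18) lie above all 3 control points (1.70 to 1.83), while at NOTCH1 and JAG1 a control is at 0.

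NOTCH2 and ADAM10 were the densest loci in all 6 libraries, and which of them came first varied within both groups. Their density ratio within a library was 0.960, 1.05 and 1.04 in QKI-5 libraries, against 0.867, 1.17 and 0.870 in controls. NOTCH2 exceeded NOTCH1 by 4.28, 2.32 and 3.90 times in QKI-5 libraries, and by 1.81 and 1.30 times in controls 1 and 2. NOTCH1 exceeded JAG1 by 2.91, 4.39 and 2.18 times in QKI-5 libraries and by 4.96 times in control 1. Control 2 had 3 events in NOTCH1 and 0 in JAG1, while in control 3 JAG1 held the only event of the pair. These ratios describe the loci and were not tested, since transcript lengths and levels differ between genes.

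The quasi-likelihood test of edgeR was run on a table of all other 10 kb windows and 1 row per locus, of which 29938 of 174690 rows passed the filter on low counts. NOTCH1, NOTCH2 and ADAM10 passed it, and 0 of these 3 were called with Benjamini-Hochberg adjustment over all tested rows. Of all rows tested, 0.718% were called higher in QKI-5 libraries and 0.107% lower. With library totals in place of TMM factors, the higher and lower calls were 25 and 58, against 215 and 32. The log2 fold change of all rows had a median of 0.78 with TMM factors, 0.58 with DESeq2 size factors and 0.22 with library totals, so member values are set against the median. NOTCH2 had a log2 fold change of 0.88 (SE 0.51, edgeR adjusted p = 0.355), which is 0.09 above the median. ADAM10 had 0.74 (SE 0.50, edgeR adjusted p = 0.442), which lies at -0.04 from the median. NOTCH1 had -0.00 (SE 0.57, edgeR adjusted p = 1.00), at -0.78 from the median. JAG1 did not pass the filter, and without it the JAG1 log2 fold change was 0.67 (edgeR adjusted p = 0.861), at -0.99 from the median of that fit. Unadjusted p-values of the 3 tested loci were 0.0837 for NOTCH2, 0.137 for ADAM10 and 0.999 for NOTCH1. Without control 1, which holds most control events, NOTCH2 (log2 1.76, edgeR adjusted p = 0.0413) and ADAM10 (log2 1.78, edgeR adjusted p = 0.0409) were called higher. In that fit 860 of 52111 rows were called higher. The median of all its rows was 6.69. Member windows with 0 events in controls 2 and 3 had log2 fold changes of 6.65 to 9.49 without control 1. Both loci had events in controls 2 and 3, so their place below this median cannot be read. Under every other alternative the adjusted p, from edgeR or DESeq2, ran from 0.251 to 0.910 for NOTCH2 and from 0.389 to 0.961 for ADAM10.

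At the scale of 10 kb windows, 25 of the 46 windows touching the loci passed the filter on low counts, 10 in NOTCH2 and 15 in ADAM10, and none in NOTCH1 or JAG1. Of these, 0 were called higher and 0 lower, against 0.754% and 0.107% of all 29960 windows tested. At an unadjusted edgeR p under 0.05 there were 4 of 25, against 18.4% of all windows. The median log2 fold change was 0.62 over the 25 windows and 0.78 over all windows, with 12 of the 25 above that median and 13 below. It was 0.49 over the NOTCH2 windows and 0.84 over the ADAM10 windows.

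The NOTCH2 window with most QKI-5 events, from 120460001 to 120470000, had 551, 152 and 211 events in QKI-5 libraries and 3, 0 and 1 in controls. The QKI-5 libraries averaged 73.2 ± 2.37 EPM there and the controls 18.4 ± 17.0 EPM (SD, n = 3 each), and the window ranked in the top 2.32% of tested windows by QKI-5 EPM. Every QKI-5 library lay above every control, as in 3 of the 25 member windows and 23.7% of all tested windows. The window was named for its QKI-5 EPM, a choice that favours a high fold change. Its log2 fold change of 2.50 (SE 0.78) was the highest of the 25, with an edgeR adjusted p = 0.0807 that missed the threshold of 0.05. Its log2 fold change fell to 1.48 (edgeR adjusted p = 0.336) on distinct positions and reached 3.90 (edgeR adjusted p = 0.0309, called) without control 1. The fit without control 1 called 831 of all 52140 windows higher. Under the other alternatives the adjusted p of this window ran from 0.0677 to 0.566. At the other end of the gene, the window from 120600001 to 120610000 had 51, 9 and 14 events in QKI-5 libraries and 5, 1 and 1 in controls. The QKI-5 libraries averaged 5.35 ± 1.47 EPM there and the controls 31.3 ± 6.37 EPM. The window had the lowest log2 fold change of the 25, -1.98 (SE 0.81, edgeR adjusted p = 0.168). By QKI-5 EPM it ranked near the bottom of the tested windows, at 99.8%. The next window, from 120590001, had 51, 13 and 32 QKI-5 events and 0 in each control, and did not pass the filter. The window from 120600001 thus passed through its control events, which favours a low fold change and a lower call. The Wald test of DESeq2 called 130 of all 29960 windows lower. This window was among them, with a log2 fold change of -2.18 and an adjusted p = 0.0358. Under the edgeR alternatives that tested it, its adjusted p ran from 0.191 to 0.652.

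The ADAM10 window with most QKI-5 EPM, from 58920001 to 58930000, had 311, 63 and 89 events in QKI-5 libraries and 4, 3 and 0 in controls. Its log2 fold change was 0.62 (SE 0.70, edgeR adjusted p = 0.678), below the median of all windows. In NOTCH1 the richest window, from 139390001 to 139400000, had 50, 32 and 19 events in QKI-5 libraries and 0 in each control. In JAG1 the richest, from 10630001 to 10640000, had 21, 5 and 9 events in QKI-5 libraries and 0 in each control. Neither passed the filter, and the 0 events of the controls leave the lower bound of the pooled ratio at 0.457 for NOTCH1 and 0.153 for JAG1, so no excess was detectable there.

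**Figure D2:**
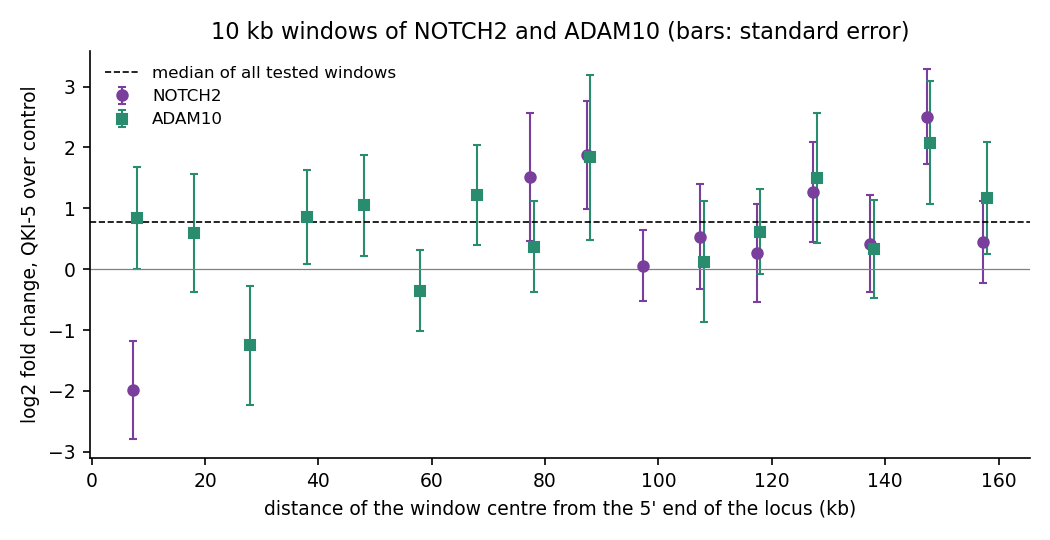
Log2 fold change, QKI-5 over control, of the 25 tested 10 kb windows (vertical axis, bars ± SE) against the distance of the window centre from the 5′ end of the locus in kb, for NOTCH2 (circles) and ADAM10 (squares). The dashed line is the median of all tested windows, 0.78, and the NOTCH2 points run from -1.98 to 2.50. The lowest point, near the 5′ end, is a window that passed the filter through its control events. The NOTCH2 windows from 120540001 to 120600000 and from 120610001 did not pass and are not drawn, so the points show no trend along the gene.

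Within NOTCH2 the events were unevenly spread along the gene. The first 70 kb from the 5′ end, a boundary chosen after the profile was seen, held 240, 74 and 114 events in QKI-5 libraries and 5, 4 and 2 in controls. The density there was 0.471, 0.493 and 0.564 EPM per kb in QKI-5 libraries, and over the remaining 88.1 kb it was 3.43, 3.13 and 3.47, or 7.28, 6.34 and 6.15 times as much. In the controls the remainder exceeded the first 70 kb by 5.40, 1.59 and 2.38 times. The density was thus lower over the first 70 kb in all 6 libraries. ADAM10, of nearly the same length, showed no such step, with 1.03, 1.05 and 0.972 times the density after its first 70 kb in QKI-5 libraries. The controls of ADAM10 scattered at 0.826, 1.93 and 0.236 times, so control ratios carry little precision at these counts.

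As a share of the locus, the first 70 kb of NOTCH2 held 10.4% of pooled QKI-5 events (exact 95% interval 9.51 to 11.4%) and 18.6% of pooled control events (9.69 to 30.9%), on 44.3% of the length. The first of 5 equal parts of the gene, counted from the 5′ end, held 6.14 ± 0.191% of events in QKI-5 libraries and 14.0 ± 2.32% in controls (SD, n = 3 each). All 3 QKI-5 shares lay below all control shares, with an exact permutation p = 0.1 (adjusted 0.4 over 4 comparisons). The control shares rest on 5, 2 and 1 events of the 39, 12 and 8 in controls 1, 2 and 3, so this order is fragile. Without the first 70 kb, the log2 fold change of NOTCH2 was 1.02 (edgeR adjusted p = 0.254), still not called. The last of the 5 parts of NOTCH2 held 41.2 ± 2.68% in QKI-5 libraries and 35.6 ± 27.1% in controls (exact permutation p = 0.7, adjusted 0.7).

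The 5′ part of NOTCH2 has partial duplicates on chromosome 1, the NOTCH2NL genes, whose reads can align to NOTCH2 as well. The placing of reads that align to several sites was not given in the sources used here, so values in the first 70 kb are uncertain. The likeness of the copies inside the locus was not measured, since no sequence of it was used here. RefSeq promoter windows of build GRCh38.p14, which lie mostly outside the transcribed gene, were compared in its place. The 250 bases upstream of NOTCH2 were aligned locally to each window of 300 bases, and identity is over the aligned bases only, so the length aligned is the measure of likeness. NOTCH2NLA matched NOTCH2 at 235 of 235 bases, NOTCH2NLB at 218 of 218 in 1 of its 2 windows, NOTCH2NLR at 218 of 218 with 1 gap base, and NOTCH2NLC at 215 of 216 with 17 gap bases. The windows of NOTCH1, NOTCH3, NOTCH4, JAG1 and ADAM10 aligned over 8 to 31 bases. The following run is shown because 4 of the 35116 promoter windows hold it unaltered, those of NOTCH2, NOTCH2NLA, NOTCH2NLB and NOTCH2NLC, and the capital marks the base absent from NOTCH2NLR. The NOTCH2 run is at chr1:120069773-120069832 on the minus strand, that of NOTCH2NLA at chr1:146229147-146229206 on the minus strand and that of NOTCH2NLR at chr1:120723744-120723802 on the plus strand.
NOTCH2: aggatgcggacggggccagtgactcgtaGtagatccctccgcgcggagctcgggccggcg
NOTCH2NLA: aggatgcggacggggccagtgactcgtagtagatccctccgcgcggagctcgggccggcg
NOTCH2NLR: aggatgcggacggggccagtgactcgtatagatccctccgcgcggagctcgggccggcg
The part of these copies in the low 5′ density of NOTCH2 was not tested.

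**Figure D3:**
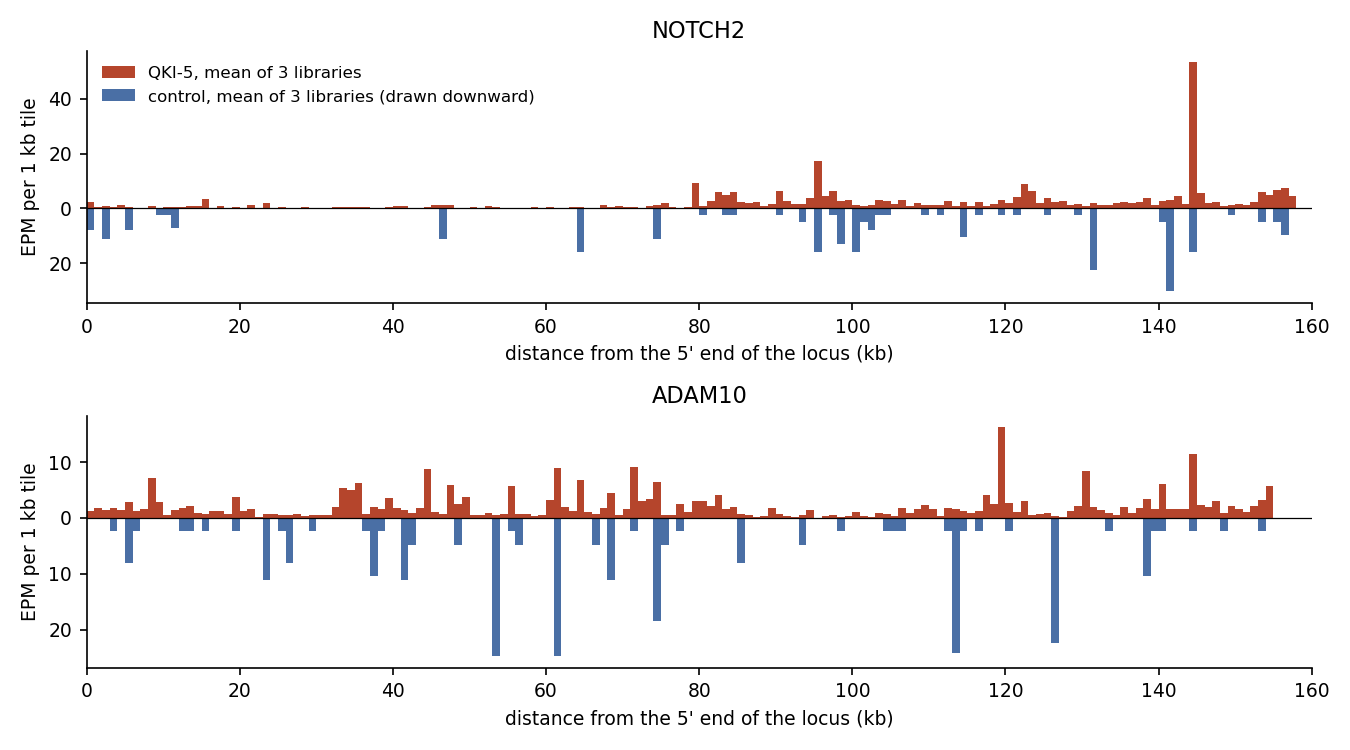
Mean EPM per 1 kb tile along NOTCH2 and ADAM10 (vertical axes, scaled per gene) against distance from the 5′ end in kb, with QKI-5 (red) drawn upward and control (blue) downward. NOTCH2 is low over its first 70 kb in QKI-5 libraries and has 1 dominant tile near its 3′ end, while ADAM10 carries events along its whole length.

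The dominant feature of NOTCH2 was a cluster of 100 nt near the 3′ end, at chr1:120467368-120467467 on the minus strand. It held 250, 70 and 109 events in QKI-5 libraries and 1, 0 and 1 in controls. As a share of the locus this was 10.2, 10.5 and 10.9% in QKI-5 libraries, on 0.0632% of the length. The cluster was thus present in all 3 QKI-5 libraries at nearly the same share. Pooled, it took 10.5% of QKI-5 events (9.54 to 11.4%) and 3.39% of control events (0.413 to 11.7%), and the pooled EPM ratio was 3.64 with an interval from 1.00 to 30.2. The cluster was chosen for its QKI-5 events, so these values are a description.

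Events in the cluster came from many positions rather than from 1. In QKI-5 replicates 1, 2 and 3 they fell on 60, 26 and 34 distinct positions, and 13 of the 21 NOTCH2 positions with an event in all 3 QKI-5 libraries lay inside it. Counting each position once, the cluster held 3.48, 5.90 and 5.58% of the positions of the locus. By the rule for named tiles of 50 nt, it is made of 2 of the 3 named tiles of NOTCH2. The upper-ranked tile, from 120467368 and 144900 nt from the 5′ end, had 190, 56 and 90 events in QKI-5 libraries and 0, 0 and 1 in controls.

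A second cluster lay 350 nt upstream, at chr1:120467818-120467917 on the minus strand. It had 160, 27 and 21 events in QKI-5 libraries and 0 in each control, and the 350 nt between the clusters had 18, 9 and 4 events in QKI-5 libraries. Its share of the locus varied between QKI-5 libraries, at 6.55, 4.06 and 2.11%. A further cluster, at chr1:120516618-120516717 on the minus strand, had 111, 18 and 39 events in QKI-5 libraries and 0, 2 and 0 in controls. No hg19 sequence or annotation was used here, so the clusters were not searched for ACUAA and not placed in an exon, intron or UTR.

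**Figure D4:**
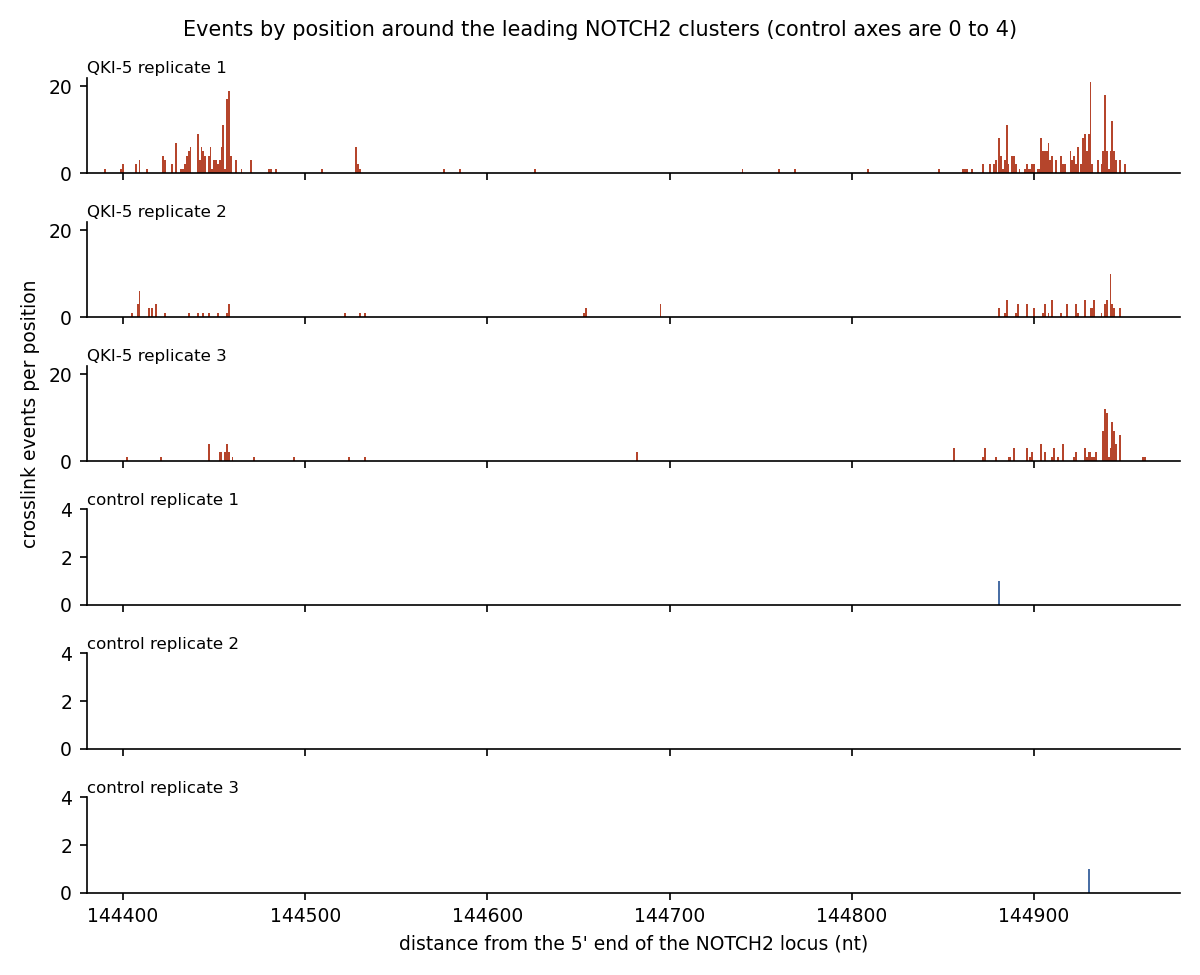
Crosslink events at each position (vertical axis, 0 to 22 for QKI-5 and 0 to 4 for control) against distance from the 5′ end of NOTCH2 in nt, in the 3 QKI-5 libraries (red) above the 3 controls (blue). Both clusters are in all QKI-5 libraries, the one near 144900 nt with 250, 70 and 109 events, and controls 1 and 3 have 1 event each.

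ADAM10 had weaker and less even clusters. Its leading tile of 50 nt, at chr15:58922678-58922727 on the minus strand, had 106, 22 and 10 events in QKI-5 libraries and 0 in each control. Its share of the locus was 4.26, 3.57 and 1.07% in QKI-5 libraries, so replicate 3 was lower than the others. The next tiles, from 58977228 and from 58973928, had 46, 6 and 10 events and 32, 2 and 16 events in QKI-5 libraries, again with 0 in each control. Of 2699 ADAM10 positions with a QKI-5 event, 8 had one in all 3 libraries, against 21 of 2582 in NOTCH2. Of all QKI-5 events, 50% lay in 165 tiles of ADAM10 (5.33% of its tiles) and in 122 tiles of NOTCH2 (3.86%).

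Whether leading tiles recur was measured by choosing the 10 leading tiles of 50 nt in 2 QKI-5 libraries and counting events in the QKI-5 library left out and in the controls. Tiles were never chosen in controls, so the groups were not compared on equal terms. The permutation p-values of these shares, in all loci, carry this limit. In NOTCH2 these tiles held 22.7, 18.3 and 19.7% of the events of the left-out QKI-5 replicates 1, 2 and 3, against 2.56, 11.1 and 12.5% in controls 1, 2 and 3, each averaged over the 3 choices. The means were 20.2 ± 2.25% in QKI-5 libraries and 8.73 ± 5.38% in controls (SD, n = 3 each), on 0.316% of the length. All QKI-5 shares lay above all control shares, with an exact permutation p = 0.1, the smallest possible, also after adjustment over the 2 loci. This did not hold when each position was counted once. The chosen tiles then held 9.27, 13.6 and 12.2% of the positions of QKI-5 libraries and 3.92, 6.67 and 16.7% of those of controls, and the groups overlapped. The difference was 2.59 points on positions (exact permutation p = 0.6), against 11.5 points on events.

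In ADAM10 the chosen tiles held 10.6, 7.94 and 5.03% of left-out QKI-5 events, against 0.758, 0 and 0% of control events. The means were 7.86 ± 2.79% in QKI-5 libraries and 0.253 ± 0.437% in controls, again with all QKI-5 libraries above all controls and an exact permutation p = 0.1. On distinct positions the separation stayed complete in ADAM10, at 6.51 ± 0.994% in QKI-5 libraries and 0.271 ± 0.469% in controls (exact permutation p = 0.1, adjusted 0.2). Controls 1, 2 and 3 hold 39, 12 and 8 events in NOTCH2 and 44, 10 and 9 in ADAM10, so 1 event moves a control share strongly. In control 3, 1 event is 12.5% of its NOTCH2 events. NOTCH1 and JAG1 had few shared tiles, and only 2 controls with events each, so their values carry little weight. In NOTCH1, with 5 to 10 tiles chosen, the mean was lower in QKI-5 libraries, 5.55 ± 3.55% against 7.14 ± 10.1% (exact permutation p = 0.8). In JAG1, with 1 to 2 tiles chosen, it was 6.42 ± 6.03% against 0% (exact permutation p = 0.2).

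**Figure D5:**
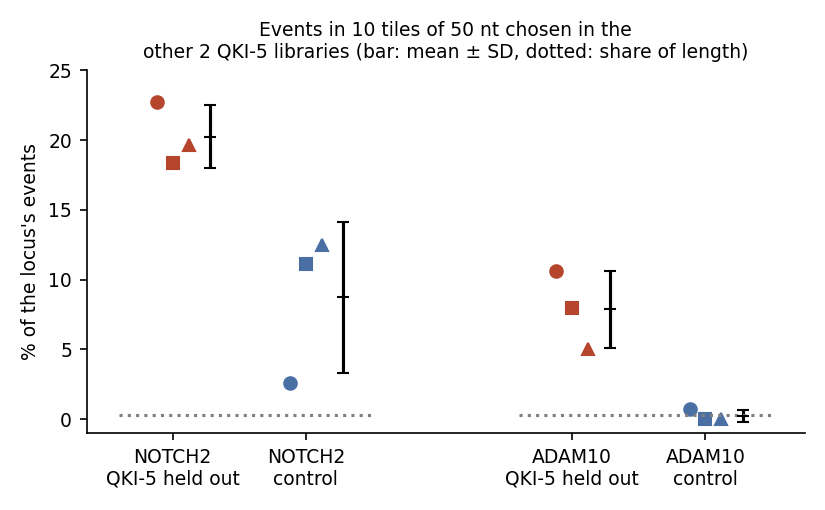
Share of the events of NOTCH2 and of ADAM10 (vertical axis, percent) in 10 tiles chosen in QKI-5 libraries other than the measured one, and never in controls. Circles, squares and triangles are replicates 1, 2 and 3, bars are mean ± SD and dotted lines are the tiles' share of length. QKI-5 points (red) lie between 18.3 and 22.7% in NOTCH2 and between 5.03 and 10.6% in ADAM10, above all control points (blue), on events and not on distinct positions for NOTCH2.

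The profile along each gene was compared between libraries by Pearson's correlation across 1 kb tiles, given without a test because tiles share library depth and transcript. Pairs of QKI-5 libraries correlated at 0.932 to 0.957 in NOTCH2 (159 tiles) and at 0.694 to 0.795 in ADAM10 (155 tiles). QKI-5 and control libraries correlated at 0.0996 to 0.365 in NOTCH2 and at -0.0180 to 0.114 in ADAM10. With 5 kb tiles these ranges were 0.235 to 0.590 in NOTCH2 and -0.0978 to 0.180 in ADAM10, and pairs of QKI-5 libraries stood at 0.941 to 0.977 and 0.863 to 0.890. Control libraries with so few events also correlated little with each other, at 0.00141 to 0.0992 in NOTCH2. In NOTCH1 pairs of QKI-5 libraries reached 0.162 to 0.338 (52 tiles) and in JAG1 -0.122 to 0.0576 (37 tiles). With 5 kb tiles, pairs of QKI-5 libraries reached 0.450 to 0.637 in NOTCH1 (11 tiles) and -0.195 to 0.568 in JAG1 (8 tiles), so the likeness in NOTCH1 was higher at the coarser scale.

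NOTCH1 events were scattered. QKI-5 replicates 1, 2 and 3 had events on 167, 63 and 54 positions, and none of the 280 positions with a QKI-5 event was shared by all 3. Only 3 of its tiles of 50 nt had an event in each QKI-5 library. The first, from 139432039, had 2, 2 and 5 events in QKI-5 libraries and 1, 0 and 0 in controls, and the second, from 139397189, had 4, 1 and 2 in QKI-5 libraries and 0 in controls. The last, from 139432089, had 1 event in each QKI-5 library and 0 in controls. Over 5 equal parts from the 5′ end, QKI-5 replicate 1 had 44, 37, 30, 24 and 50 events, so both ends held more than the middle. A long noncoding RNA, LOC124902310, and MIR4673 lie inside NOTCH1 in RefSeq, and their share in its events was not separated.

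JAG1 had 58 positions with a QKI-5 event and none shared by all 3 libraries. Its single tile with events in each QKI-5 library, from 10629095, had 1, 2 and 1 events in QKI-5 libraries and 0 in controls. JAG1 was the locus with the most events on the opposite strand, 10, 1 and 3 in QKI-5 libraries and 0 in controls. This was 18.2, 6.25 and 10.0% of the events on both strands, and 13.9% pooled (exact 95% interval 7.79 to 22.2%). The other loci were almost free of such events, with 2 in NOTCH2 (0.0487%), 2 in ADAM10 (0.0495%) and 0 of 361 in NOTCH1, which allows a share of up to 0.831%. RefSeq places MIR6870 inside JAG1. Inside ADAM10 it places 4 pseudogenes and a snoRNA, and no gene inside NOTCH2.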

How the data were processed

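The build was hg19 and the tools were Bowtie and cutadapt, per the submitters' processing notes, and their versions were not given in the sources used here. The authors deposited, for each library, a whole-number count of crosslink events per position and strand, not normalized. Merging of PCR copies was not described. Events on the minus strand of each locus were summed, and EPM are events per 1000000 library events. Loci and 10 kb windows were tested on the deposited counts with edgeR 4.0.16 (R 4.3.3, limma 3.58.1): quasi-likelihood test, TMM factors, filterByExpr and the group as the only term. Benjamini-Hochberg adjustment ran over all rows, with a threshold of 0.05. The main edgeR fit of the 10 kb windows was first run on simulated counts, and the other fits were not. Single values were compared by two-sided exact permutation tests over libraries (scipy 1.17.1). Pooled ratios carry exact 95% intervals conditional on the total events, and shares carry Clopper-Pearson intervals. Tiles of 50 nt run from the 5′ end of the locus.

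The text names all 4 members. For each it names up to 3 tiles, those with the highest geometric mean EPM among tiles with an event in each QKI-5 library (JAG1 has 1 such tile), and the window with most QKI-5 EPM. Windows called under the threshold, at most 3 per locus, were to be named too, and none was. The window from 120600001, the stretches of 100 nt and the 70 kb boundary in NOTCH2 were chosen after their values were seen. Members and lists were chosen with earlier results of these data known. Alternatives covered scaling (edgeR with DESeq2 size factors, library totals), the DESeq2 1.42.0 Wald test, no filter, distinct positions, window and tile sizes, the replicate number as a block and each library left out. The search for the recognition element, the list of other Notch pathway genes, the bronchial markers and genes of like pattern need an hg19 genome or annotation and were not analysed here.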

Additional observations from a re-analysis of the deposited data

How the results depend on the processing

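Of 141 values recomputed under alternatives, 129 kept their direction and their side of the threshold or stayed within the spread between replicates. Leaving out control 1 gave log2 fold changes of 1.76 for NOTCH2 and 1.78 for ADAM10, both called. The median of all rows in that fit, 6.69, lay in the range of member windows with 0 events in controls 2 and 3, so it is no measure for these loci. That fit called 860 of all 52111 rows higher. Of windows tested without control 1, 1 of 33 member windows was called higher, against 831 of all 52140. The DESeq2 Wald test called 1 of 25 member windows lower, against 130 of all 29960. That window had passed the filter through its control events. The log2 fold change of NOTCH1, at -0.00, changed sign without the filter (0.49), without control 1 (1.13) and without control 2 (0.34), and was not called. It lay below the median of all rows in every fit that tested it. Apart from the fit without control 1, its distance from the median ran from -1.16 without the filter to -0.57 without control 2. The EPM ratio of NOTCH1 was 1.28 without control 2 and that of JAG1 2.07 without control 3, against 0.792 and 0.552. The share of the last of 5 parts of NOTCH2 differed by -7.99 points without control 2, against 5.63, and that of the first part of ADAM10 by 3.17 points when 10 parts replaced 5, against -2.29. In these cases the cause was not tested.

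With single libraries left out, log2 fold changes ran from 0.15 to 1.76 for NOTCH2 and 0.062 to 1.78 for ADAM10, and from -0.12 to 1.13 for NOTCH1, which was tested only in the 3 fits without a control. Member windows called higher ran from 0 to 1 and lower from 0 to 0, but without QKI-5 replicates 1, 2 and 3 only 0, 1 and 0 member windows were tested. EPM ratios ran from 0.528 to 1.28 for NOTCH1, 1.15 to 1.21 for NOTCH2, 0.368 to 2.07 for JAG1 and 1.02 to 1.17 for ADAM10. Held-out share differences ran from 8.44 to 13.4 points in NOTCH2 and 7.48 to 7.86 in ADAM10 without 1 control, and were 2.59 and 6.24 on distinct positions. Differences of the first of 5 parts ran from -8.60 to -6.52 points in NOTCH2 and -4.95 to -0.504 in ADAM10, and of the last from -7.99 to 19.1 and from 4.39 to 10.5. The JAG1 antisense share ran from 8.70 to 15.5% without 1 QKI-5 library. Leaving out a QKI-5 library cut the tested rows from 29938 to between 894 and 952, since the filter follows the median library size. The number of all windows called higher, 226, was 85 with DESeq2 size factors, 23 with library totals, 26 on distinct positions, 76 with 20 kb windows, 50 without control 2 and 831 without control 1, and 28 to 102 without a QKI-5 library.

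With the replicate number as a block, the log2 fold changes were 0.21 for NOTCH1, which reversed its sign, 1.03 for NOTCH2 and 0.94 for ADAM10, against a median of 0.91, and 0 windows were called. Same-numbered QKI-5 and control libraries correlated at -0.003, 0.102 and 0.0749 across 29960 windows. QKI-5 replicates 2 and 3 correlated best with the control of their own number, and replicate 1 with control 3 (0.0584). The labels give no pairing beyond the number, so whether the libraries were paired is not known.

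The depth of the controls limits each comparison above, with 10 control events in NOTCH1 and 2 in JAG1. Without an hg19 annotation, reads of genes inside the loci could not be set apart.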
